A study of Mus musculus with 6 samples.

Results

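The genes described here are 10 regulators of the neurogenic cascade of the dorsal telencephalon, measured by RNA sequencing in the cortex of mouse embryos at E13.5, a mid-gestation stage of cortical neurogenesis. They are the proneural genes Neurog1 and Neurog2, the intermediate progenitor genes Eomes, Insm1, Btg2 and Gadd45g, and the neuronal differentiation genes Neurod1, Neurod2, Neurod4 and Neurod6. They were chosen by gene symbol, all 10 were found among the 17348 genes listed, and all 10 passed the filter on low counts that left 13340 genes for testing. The cKO embryos carried the Nestin-Cre transgene and floxed alleles of Ybx1, which encodes an RNA-binding protein (Nestin-Cre, Ybx1 fl/fl), and there were 3 cKO libraries. The 3 control libraries are labelled WT in the sample records and Ctrl in the expression table, and the study's text calls the controls both wild-type littermates and Ybx1 fl/fl animals without the transgene. Nestin-Cre acts in neural progenitors, and the deletion passes to their progeny. Whether blood, vessel, microglial and meningeal cells in the tissue kept Ybx1 was not tested. Replicates are called biological by the submitters, and whether each is 1 embryo is not stated, so the p-values below measure the spread between these libraries only.

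In the cortex, a radial glial cell that begins to differentiate switches on Neurog2, a basic helix-loop-helix (bHLH) transcription factor that pairs with E proteins and activates genes of the glutamatergic neuron programme. Many of its daughters pass through the intermediate progenitor state, which is defined by the T-box factor Eomes (Tbr2), before they divide into neurons. Factors of the Neurod family are then switched on in turn, Neurod1 in late intermediate progenitors and newborn neurons, and Neurod2 and Neurod6 in neurons.

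The 10 genes are small and mostly have their coding sequence in 1 exon. In GENCODE M21 (build GRCm38), Neurog1, Neurog2, Insm1, Neurod1, Neurod2, Neurod4 and Neurod6 each have 1 coding exon, which holds for 6.0% of tested genes with a coding model. The gene span of all 10 was below the median of 26254 bp of tested genes, from 1686 bp for Neurog1 (chr13:56250478-56252163, minus strand) to 12089 bp for Neurod4 (chr10:130268152-130280240, minus strand). The locus of Neurog2 is chr3:127633135-127635631 on the plus strand, and that of Eomes is chr9:118478212-118486132 on the plus strand. Neurod1 (chr2:79452521-79456751, minus strand) lies entirely within the span of Cerkl on the same strand, and 2767 bp of it are covered by the noncoding gene Gm26755 on the other strand. A stretch of 574 bp of Eomes is covered by the antisense gene Gm33460. Whether the counting used strand is not stated, so the values of Neurod1 and Eomes may hold reads of these partners.

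RefSeq promoter sequences (GRCm38.p6, 250 bases before to 50 after a transcript's start) were matched for 9 of the 10 genes, in 10 windows. The 100 bases before the start are shown for the genes that carry a TATA box at the usual distance, and for Neurod2, which like Gadd45g has 3 E-boxes in its whole window. Capitals mark the letters TATANAA between 40 and 20 bases before the start, on the gene's own strand, and the letters CANNTG, the E-box that bHLH factors bind, which reads alike on both strands. The 2 motifs do not overlap in these sequences.
Neurog2, chr3:127633036-127633135, plus strand: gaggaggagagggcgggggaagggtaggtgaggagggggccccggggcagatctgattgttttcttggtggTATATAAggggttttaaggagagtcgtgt
Eomes, chr9:118478089-118478188, plus strand: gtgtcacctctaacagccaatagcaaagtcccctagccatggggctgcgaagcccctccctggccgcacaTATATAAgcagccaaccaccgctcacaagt
Gadd45g, chr13:51846575-51846674, plus strand: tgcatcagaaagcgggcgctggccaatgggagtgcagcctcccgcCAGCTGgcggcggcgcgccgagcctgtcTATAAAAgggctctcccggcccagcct
Neurod1, chr2:79456637-79456736, minus strand: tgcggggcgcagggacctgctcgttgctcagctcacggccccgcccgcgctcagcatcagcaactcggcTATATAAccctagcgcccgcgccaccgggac
Neurod2, chr11:98329646-98329745, minus strand: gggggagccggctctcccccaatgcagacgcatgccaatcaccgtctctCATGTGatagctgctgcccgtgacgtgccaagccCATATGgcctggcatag

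In these sequences the TATA motif began 29 bases before the start in Neurog2, 30 in Eomes, 27 in Gadd45g and 31 in Neurod1. Neurod2 had E-boxes 51 and 17 bases before the start, and Gadd45g had one at 55. The TATA motif was present at this distance in 4 of the 9 matched genes and in 1.51% of 32851 promoter sequences. This motif was chosen after these sequences had been read, so the count is a description. The E-box, in contrast, was found in the 300 bases of 6 of the 9 genes and in 72.3% of all promoter sequences.

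The libraries held between 15907491 and 16282929 estimated counts, and Spearman correlations between pairs of libraries lay between 0.986 and 0.997. Dorsal telencephalic markers were well expressed in every library, with Lhx2 at 520.2 to 679 CPM (counts per library total after TMM normalisation). For the deleted gene Ybx1, WT replicates 1, 2 and 3 gave 1021, 528 and 1220 CPM, against 83.1, 117 and 147 CPM in the cKO replicates in the same order. The value of the library labelled WT replicate 2 was thus intermediate. For Ybx1 the edgeR test used below gave a log2 fold change of -3.00 (SE 0.33), adjusted p-value 0.128, so even this loss, to 12.5% of WT, did not pass the threshold, and it passed in 5 of 16 alternative fits. In cKO replicate 3, genes of epidermis (Krt5 and 5 others) summed to 267 CPM against 1.25 to 2.37 elsewhere, and genes of connective tissue summed to 535 CPM against 8.55 to 17.1. Counts of the 10 genes, and counts over gene lists that change, are also given without these 2 libraries.

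The 10 genes spanned a wide range of transcript levels. Per transcript length (TPM, over all 6 libraries), Neurod6 was the most abundant at 954 ± 139 (SD, n = 6) and ranked 140 of the 17348 genes. Neurog2 followed at 408 ± 28.9 TPM, Neurod2 at 371 ± 82.3 and Eomes at 321 ± 50.4. A middle group held Gadd45g at 172 ± 32.9 TPM, Neurod1 at 136 ± 24.1 and Insm1 at 122 ± 23.3. Below them lay Btg2 at 83.6 ± 3.67 TPM, Neurog1 at 41.4 ± 7.32 and Neurod4 at 11.9 ± 1.45. The ranges over libraries of Neurog2 and Neurod2 overlapped, as did those of Neurod2 and Eomes, of Gadd45g and Neurod1, and of Neurod1 and Insm1. The ranges of the other neighbours in this order did not overlap. Thus Neurog2 was the dominant neurogenin, and Neurod6 the dominant Neurod gene, in WT and cKO libraries alike.

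**Figure D1:**
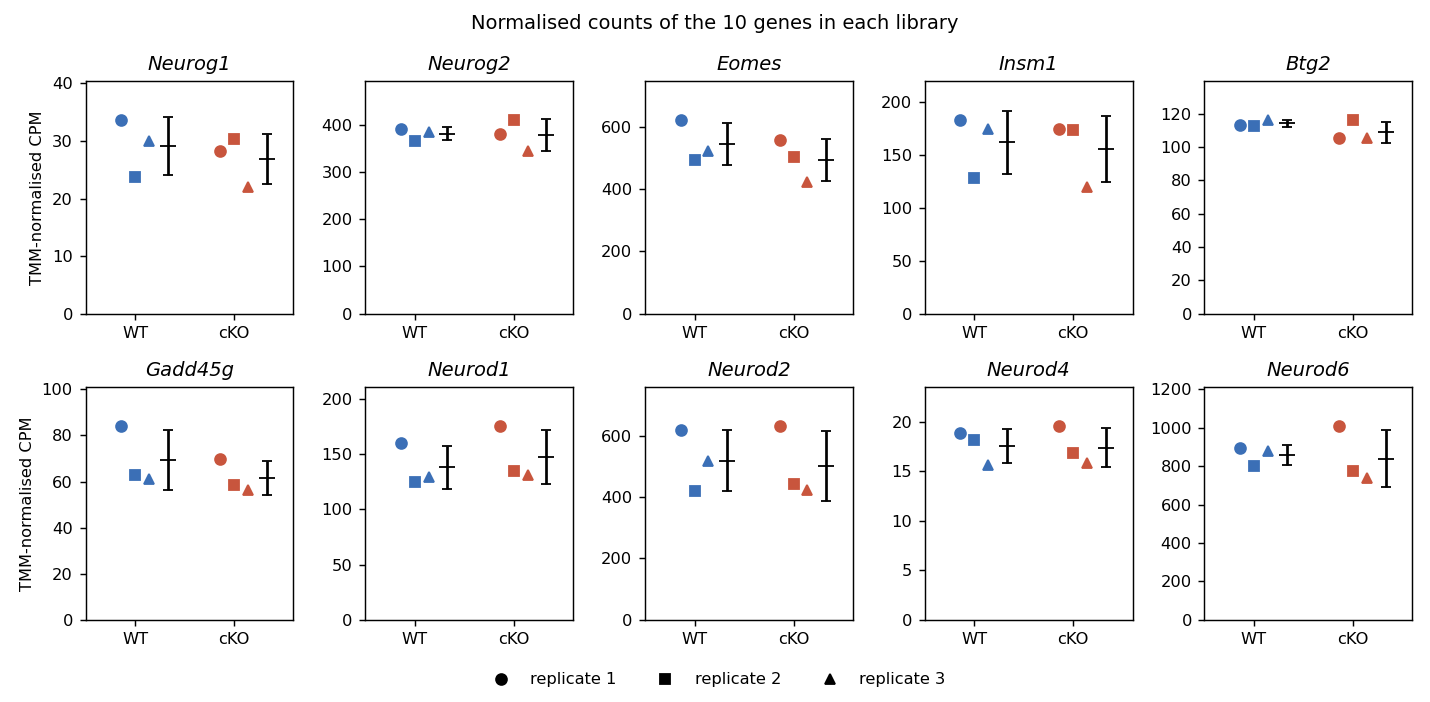
TMM-normalised CPM (y axes, from 0) of the 10 genes in each WT (blue) and cKO (red) library. Circles, squares and triangles are replicates 1, 2 and 3, and black bars show the mean and SD of 3 libraries. The 2 genotypes overlap for every gene.

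None of the 10 genes passed a threshold between genotypes. The question of whether deletion of Ybx1 altered the abundance of these transcripts was put to the libraries with edgeR's quasi-likelihood test and Benjamini-Hochberg adjustment over 13340 genes. At an adjusted p-value under 0.05, 0 of the 10 were called, against 0% of all tested genes, and DESeq2 also called 0 of the 10. Over all tested genes DESeq2 called 2 higher and 2 lower. The unadjusted p-value was under 0.05 for 0 of the 10, against 3.57% of tested genes (1.75% higher and 1.81% lower in cKO). On log2(TPM + 1) the split of unadjusted calls over all genes was 247 higher and 168 lower in place of 234 and 242, and 0 of the 10 were among them. The libraries of both genotypes overlapped for 10 of 10 genes. They were separate for 9.04% of tested genes, so 0 of 10 is near that share. Unadjusted p-values ran from 0.257 (Gadd45g) to 0.919 (Neurog2), and every adjusted p-value was 1.0. The fold change was negative for 9 genes and positive for Neurod1, with a median log2 fold change of -0.053 against 0.0019 over all tested genes. In bulk tissue, fewer cells of a type and less RNA per cell cannot be told apart.

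The proneural genes come first. Neurog2, the main driver of glutamatergic fate, stood at 391, 365 and 386 CPM in WT replicates 1 to 3 and at 381, 411 and 344 CPM in cKO replicates 1 to 3. The highest and the lowest value both came from cKO libraries. Its log2 fold change was -0.0089 (SE 0.085), with a 95% interval from 86.7% to 114% of the WT level. This was one of the 2 tightest estimates among the 10 genes. Neurog1, its less abundant relative, gave 33.7, 23.7 and 29.9 CPM in WT and 28.3, 30.4 and 22.0 CPM in cKO. WT replicate 2 and cKO replicate 3 were lowest, and the other 4 libraries were close together. The log2 fold change of Neurog1 was -0.12 (SE 0.16), and the interval of 71.2% to 120% of WT leaves room for a difference in either direction.

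Among genes of intermediate progenitors, Eomes measured 622, 494 and 521 CPM in WT and 558, 503 and 424 CPM in cKO. WT replicate 1 was the highest and cKO replicate 3 the lowest, with the other libraries overlapping between them. This amounted to a log2 fold change of -0.14 (SE 0.13), an estimate of 90.6% of WT with an interval from 74.0% to 111%. Leaving out single libraries moved it to -0.034 (without WT replicate 1), -0.042 (without cKO replicate 3) and -0.23 (without cKO replicate 1). Insm1, a zinc-finger factor that promotes the formation of basal progenitors, gave 183, 128 and 174 CPM in WT and 174, 174 and 120 CPM in cKO. Its level was thus alike in 4 libraries and low in WT replicate 2 and cKO replicate 3. The log2 fold change of Insm1 was -0.054 (SE 0.18).

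Btg2 (Tis21), an antiproliferative gene switched on in progenitors that undergo neurogenic divisions, was the steadiest of the 10. It showed 113, 113 and 116 CPM in WT and 105, 116 and 105 CPM in cKO, and its spread within genotypes was larger than that of only 10.2% of tested genes. The log2 fold change was -0.068 (SE 0.066), so the interval ran from 85.8% to 106% of WT. Gadd45g, a growth-arrest gene, had the lowest fold change of the 10. It reached 84.1, 62.7 and 60.9 CPM in WT and 69.8, 58.3 and 56.5 CPM in cKO. The WT mean rested on the high value of replicate 1. Its log2 fold change was -0.17 (SE 0.14), or 88.9% of WT with an interval from 71.1% to 111%, and it came to -0.0030 without WT replicate 1.

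Of the Neurod genes, Neurod1 was the one with a positive fold change. It gave 160, 125 and 130 CPM in WT and 176, 135 and 131 CPM in cKO, with the 2 libraries numbered 1 on top. The log2 fold change was 0.093 (SE 0.14), from 85.5% to 133% of WT, and it was -0.044 without cKO replicate 1. Neurod4, a low-abundance bHLH gene of the same family, gave 18.9, 18.2 and 15.7 CPM in WT and 19.6, 16.8 and 15.8 CPM in cKO. Both genotypes covered nearly the same range, and the log2 fold change was -0.015 (SE 0.12).

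Both genes of differentiated neurons were abundant. Neurod2 gave 617, 420 and 517 CPM in WT and 631, 444 and 424 CPM in cKO, and with Insm1 it had the widest scatter within genotypes of the 10 genes. Its log2 fold change was -0.052 (SE 0.19), with an interval from 71.7% to 130% of WT. Neurod6, a gene of postmitotic glutamatergic neurons, gave 895, 799 and 877 CPM in WT and 1009, 772 and 738 CPM in cKO. The 3 WT libraries lay within the range of the cKO libraries, and the log2 fold change was -0.030 (SE 0.13). Over all 10 genes, the bounds of the intervals lay between 71.1% and 133% of the WT level.

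**Figure D2:**
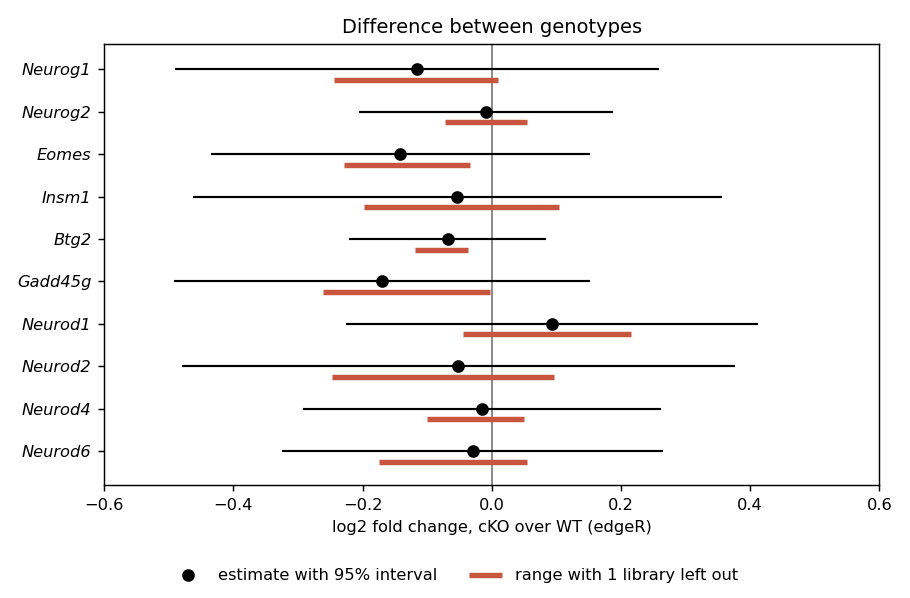
Log2 fold change of cKO over WT (x axis) for each gene. Black points and lines are the edgeR estimate and its 95% interval, and red bars span the estimates obtained when each of the 6 libraries was left out. All 10 intervals cross 0, and the red bar of 7 genes does too.

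Single libraries decided most of the signs. When each library was left out in turn, 7 of the 10 genes changed sign, and Eomes, Btg2 and Gadd45g stayed negative. Leaving out WT replicate 2 and cKO replicate 3 together gave log2 fold changes of -0.11 for Eomes, -0.18 for Gadd45g, -0.053 for Btg2 and 0.10 for Neurod1. Again 0 of the 10 genes had an unadjusted p-value under 0.05 in edgeR. Few genes did in that fit, 105 higher and 141 lower over all tested genes, so 0 of 10 is near the general share.

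Several of the 10 genes shared parts of an order of libraries that did not follow genotype. Relative to the mean of the 6 libraries, their median log2 deviation was 0.20 in WT replicate 1, 0.13 in cKO replicate 1 and -0.20 in cKO replicate 3. All 10 were above their mean in WT replicate 1 and 9 of 10 in cKO replicate 1, whereas 0 of 10 were in cKO replicate 3. The within-genotype spread was above the median of tested genes for 8 of the 10, the exceptions being Neurog2 and Btg2. The 2 libraries numbered 1 both exceeded the other 4 for Eomes, Gadd45g, Neurod1, Neurod2, Neurod4 and Neurod6, 6 of 10 genes, and this order held for 20.0% of tested genes. WT replicate 2 and cKO replicate 3 were the 2 lowest libraries for Neurog1, Neurog2, Eomes, Insm1 and Neurod2, 5 of 10 genes against 11.4% of tested genes. Eomes and Neurod2 showed both orders, and Btg2 showed neither. These orders were seen after the values were known and carry no test.

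**Figure D3:**
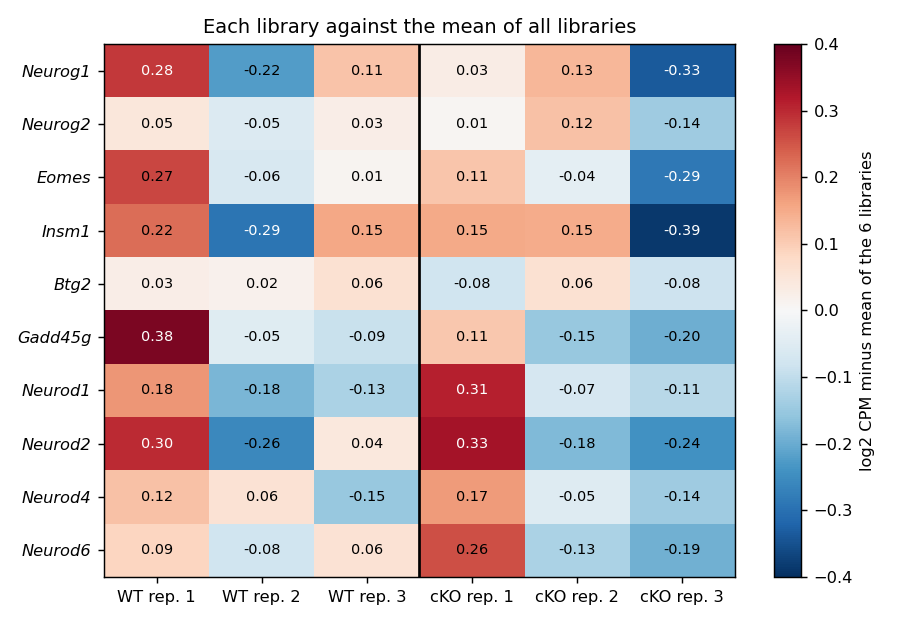
Log2 CPM of each gene in each library minus the mean of the 6 libraries (colour and printed value). The vertical line separates WT from cKO, and the columns of the 2 libraries numbered 1 are mostly red while that of cKO replicate 3 is blue throughout.

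Other genes of the same cell states followed the libraries numbered 1 in the same way. These 2 libraries exceeded the other 4 for 9 of 11 further intermediate progenitor genes and for 12 of 13 genes of glutamatergic neurons, orders held by 20.0% of tested genes. They lay below the other 4 for 6 of 10 radial glial genes, again against 20.0%. Summed radial glial genes came to 2264 CPM in WT replicate 1 and 2171 CPM in cKO replicate 1, against 2775 to 3133 CPM in the other libraries. Summed neuronal genes were 6321 and 6430 CPM in these 2 libraries and 5177 to 5904 CPM in the others. The part of the neuron and radial glia content in this pattern was not tested, and the submitters, who mention 3 batches of sequencing, do not say which libraries each held.

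The balance between steps of the cascade was compared as ratios of TPM within a library. Neurog1 and Neurog2 made up 15.3% to 19.5% of the summed TPM of the 10 genes, and Eomes, Insm1, Btg2 and Gadd45g 25.0% to 28.4%. Neurod1 and Neurod4 contributed 5.03% to 6.08%, and Neurod2 and Neurod6 47.6% to 53.7%. The ratio of Neurod6 to Eomes was 2.62, 2.94 and 3.07 in WT and 3.30, 2.79 and 3.17 in cKO, a log2 difference of 0.10 with p = 0.4 (exact two-sided permutation test). The ratio of Neurog2 to Eomes was 1.10, 1.29 and 1.29 in WT and 1.19, 1.42 and 1.41 in cKO, a log2 difference of 0.13 with p = 0.3 in the same exact test. The smallest p-value this test allows with these libraries is 0.1, so neither ratio could have passed 0.05. Both ratios overlapped between genotypes. With 1 library left out, the log2 difference of Neurod6 to Eomes ran from 0.035 (without WT replicate 1) to 0.17 (without cKO replicate 2), and that of Neurog2 to Eomes from 0.054 (without WT replicate 1) to 0.21 (without cKO replicate 1).

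Partners and inhibitors of the bHLH factors were examined next. E proteins are the dimer partners of Neurog and Neurod factors, and 0 of 3 had an unadjusted p-value under 0.05. Tcf4, the most abundant, gave 1129, 1053 and 1072 CPM in WT and 1090, 958 and 984 CPM in cKO, a log2 fold change of -0.10 (SE 0.084, edgeR adjusted p-value 1.0). Id proteins sequester E proteins, and Hes and Hey factors, which act downstream of Notch, repress proneural genes. Of 8 such genes, 0 had an unadjusted p-value under 0.05, and the median log2 fold change was -0.054. Without WT replicate 2 and cKO replicate 3 the median was -0.12, and Hey2 had an unadjusted p-value of 0.028 (log2 fold change -0.48). With all libraries, Hey2 had a log2 fold change of -0.17 (SE 0.21, unadjusted p = 0.431 in edgeR). It gave 9.55, 8.49 and 8.38 CPM in WT and 6.61, 6.21 and 10.6 CPM in cKO. The omitted cKO replicate 3 was thus its highest library. Id4, the most abundant, gave 574, 691 and 667 CPM in WT and 524, 755 and 638 CPM in cKO, and the 2 lowest values were those of the libraries numbered 1. Id2 had the lowest p-value of the list, with a log2 fold change of -0.12 (SE 0.12).

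Among 9 known or likely targets of the proneural factors, 0 were called after adjustment, and 1 had a lower level in cKO with an unadjusted p-value under 0.05. This gene was Elavl2, a neuronal RNA-binding protein, at 297, 279 and 292 CPM in WT and 267, 231 and 215 CPM in cKO. Its cKO values were separate from and below its WT values, and the log2 fold change was -0.28 (SE 0.091, unadjusted p = 0.014, adjusted p-value 1.0 in edgeR). Its fold change stayed between -0.37 and -0.22 when single libraries were left out, and without both WT replicate 2 and cKO replicate 3 the unadjusted p-value was 0.067. Rnd2, a small GTPase activated by Neurog2 in migrating neurons, had the highest TPM of the list. It gave 285, 220 and 244 CPM in WT and 255, 229 and 193 CPM in cKO, a log2 fold change of -0.14 (SE 0.13), and the genotypes overlapped. The Notch ligands Dll1 and Dll3, Mfng, Hes6, Nhlh1, Cbfa2t2 and Elavl4 also overlapped.

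Of the 11 further intermediate progenitor genes, which include Rnd2, 0 passed either threshold, with fold changes between -0.15 and 0.074 on the log2 scale. The lowest p-value was that of Cdc25b, a phosphatase that promotes entry into mitosis, at 70.2, 70.0 and 70.1 CPM in WT and 61.3, 73.5 and 62.1 CPM in cKO. Of 5 tested genes in a list of other neural bHLH genes, 0 passed either threshold. Bhlhe22, a neuronal member of the wider family, had a log2 fold change of -0.25 (SE 0.15), and Nhlh1, a bHLH gene of newborn neurons, one of 0.038 (SE 0.19).

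Paralogs of the intermediate progenitor genes were tested to see whether a close relative moved. Of 8 tested, 0 were called after adjustment and 1 was higher in cKO at an unadjusted p-value under 0.05. Gadd45b gave 0.942, 0.929 and 1.06 CPM in WT and 1.43, 1.32 and 2.35 CPM in cKO, so the genotypes did not overlap at this low level. This gave a log2 fold change of 0.80 (SE 0.31, unadjusted p = 0.032, adjusted p-value 1.0 in edgeR). The highest value came from cKO replicate 3, the library with epidermal and connective tissue genes, and without it and WT replicate 2 the log2 fold change was 0.45 with an unadjusted p-value of 0.212. Tbr1, the relative of Eomes that follows it in neurons, gave 555, 425 and 506 CPM in WT and 545, 464 and 412 CPM in cKO. Its log2 fold change was -0.065 (SE 0.13).

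Markers of the cell types around the cascade set the context. For radial glia, 0 of 10 genes had an unadjusted p-value under 0.05, and Vim, the most abundant, had a log2 fold change of 0.080 (SE 0.16) while Sox2, with the lowest p-value, had 0.11 (SE 0.12). For glutamatergic neurons the count was 0 of 13, with 10 negative fold changes and a median of -0.099, and the lowest p-value was that of Fezf2 at -0.22 (SE 0.12). Tubb3, with the highest TPM, had 0.036 (SE 0.11). For the 8 dorsal telencephalic genes it was 0 as well, with Lhx2 at -0.12 (SE 0.094).

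Some genes of other territories passed the unadjusted threshold. Of 9 tested genes of ventral telencephalon and interneurons, 5 were higher in cKO at an unadjusted p-value under 0.05, and their summed level was 119 to 179 CPM in WT and 192 to 221 CPM in cKO. Sst, an interneuron neuropeptide, gave 9.67, 7.75 and 9.25 CPM in WT and 20.3, 19.3 and 19.7 CPM in cKO, with a log2 fold change of 1.15 (SE 0.11) and an adjusted p-value of 0.0953 in edgeR. Without WT replicate 2 and cKO replicate 3, 1 of the 9 had an unadjusted p-value under 0.05. This was Sst, with a log2 fold change of 1.06 (unadjusted p = 1.8e-04 in edgeR). The median log2 fold change of the list went from 0.76 to 0.54. Of 6 Cajal-Retzius genes, Reln had one under 0.05 (log2 fold change -0.37, SE 0.14), and of 4 diencephalic genes, Lhx9 did (-0.33, SE 0.12). Without the same 2 libraries these unadjusted p-values were 0.0885 for Reln and 0.0772 for Lhx9. Another diencephalic gene, Otx2, then had one of 0.0061 (log2 fold change 1.88). With all libraries, Otx2 had a log2 fold change of 0.35 (SE 0.68, unadjusted p = 0.616 in edgeR), and the genotypes overlapped. Its counts were low, from 8 to 63. The omitted WT replicate 2 was its highest library, at 3.90 CPM, and cKO replicate 2 came next at 3.20 CPM. The part of ventral, Cajal-Retzius and diencephalic cells in the values of the 10 genes was not tested.

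Among non-neural cells, 0 of 5 endothelial, 0 of 7 erythroid and 0 of 7 microglial genes had an unadjusted p-value under 0.05. Pecam1 of endothelium had a log2 fold change of 0.14 (SE 0.13), Hba-x of erythroid cells 0.34 (SE 0.22) and C1qc of microglia 0.48 (SE 0.21). Without WT replicate 2 and cKO replicate 3, the median of the erythroid list went from 0.17 to 0.33. Hbb-y then had an unadjusted p-value of 0.030 (log2 fold change 0.51). With all libraries its log2 fold change was 0.23 (SE 0.20, unadjusted p = 0.285 in edgeR). The most abundant erythroid gene, Hba-a1, had 0.17 (SE 0.20), and the most abundant microglial gene, C1qb, had -0.095 (SE 0.23). Connective tissue genes passed the unadjusted threshold in 3 of 5 cases and epidermal genes in 2 of 2, and 0 of either list did without WT replicate 2 and cKO replicate 3. Col1a1 was at 128 CPM in cKO replicate 3 and at 1.36 to 6.02 CPM in the other libraries, Col3a1 at 181 against 3.25 to 4.52 CPM, and Sfn at 22.1 against 0.690 to 1.25 CPM. For the 10 genes, 0 had an unadjusted p-value under 0.05 in edgeR without cKO replicate 3. Over all tested genes, that fit gave 138 higher and 188 lower.

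**Figure D4:**
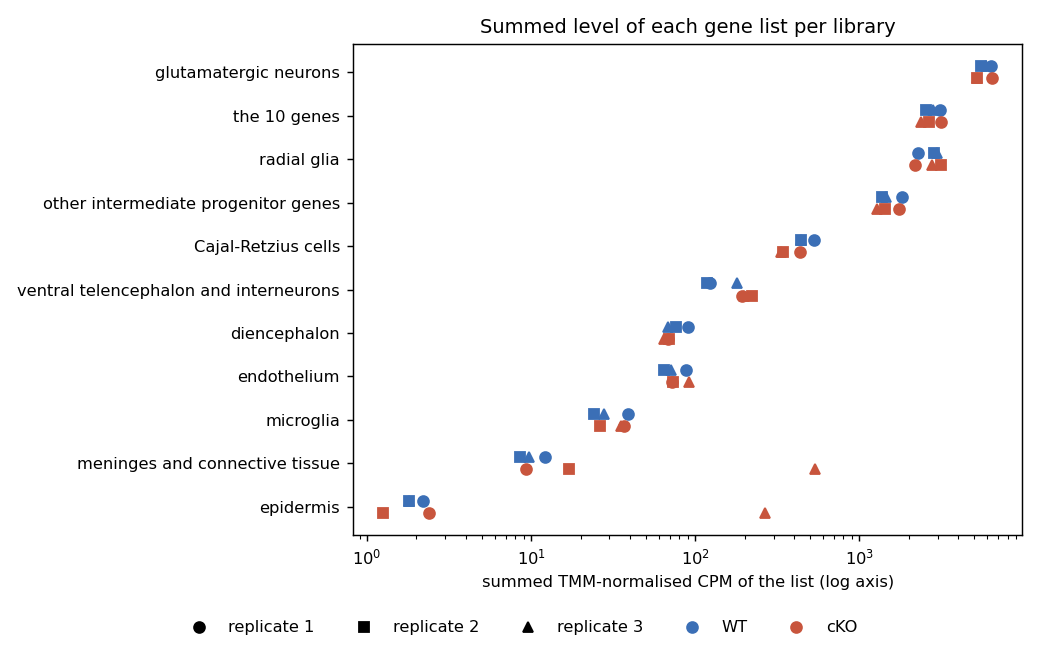
Summed TMM-normalised CPM of each gene list (x axis, log scale) in each WT (blue) and cKO (red) library, with circles, squares and triangles for replicates 1, 2 and 3. The 10 genes summed to 2379 to 3152 CPM with overlapping genotypes, while cKO replicate 3 stands apart for connective tissue and epidermis.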

How the data were processed

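Total RNA of E13.5 cortex was extracted with Trizol, and mRNA libraries were sequenced on a DNBSEQ platform by the authors. The submitters' processing notes name HISAT2 2.2.1, Bowtie2 2.4.5, RSEM 1.3.1 and the build GRCm38 (mm10), while the annotation and any use of strand are not given in the sources used here. The deposited table holds estimated counts without normalisation for depth, of which 10.9% were not whole. It also holds TPM values, which the authors scaled for transcript length and library, and deposited FPKM values, which were not used. Another 6 columns of group means were left out.

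Genotype and replicate number came from the sample titles. Estimated counts were rounded, genes were kept by filterByExpr (minimum count 10, minimum total 15), and TMM factors lay between 0.987 and 1.03. The main test was edgeR's quasi-likelihood test (edgeR 4.0.16, R 4.3.3), with no term besides genotype and with Benjamini-Hochberg adjustment over 13340 genes. It was also run on simulated counts drawn independently for each library. Those held no outlying library, so they do not show how the test behaves with one such as cKO replicate 3. The SE of each log2 fold change was derived from its F statistic (absolute fold change over root F). A count of 0 allows up to 3 counts, or 0.181 to 0.188 CPM, and this covers counting error only. Alternatives were other scaling factors and filters, DESeq2 1.42.0, limma-voom (limma 3.58.1), limma on log2(TPM + 1), the replicate number as a block, and leaving out libraries. The 10 genes and all gene lists were chosen with earlier results of these data known. Named from each list were the gene with the lowest p-value and the gene with the highest TPM, and for lists close to the cascade also each gene with an unadjusted p-value under 0.05. The remaining proneural targets, Hey2, Otx2 and Hbb-y were named beyond this rule, after their values were seen. One gene of a marker list enters the counts and is not reported here.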

Additional observations from a re-analysis of the deposited data

How the results depend on the processing

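In 16 alternative fits, 0 of the 10 genes had an adjusted p-value under 0.05, and the lowest adjusted p-value of any of them was 0.582. Eomes, Btg2 and Gadd45g kept a negative fold change in all 16. Outside the fits that left out 1 library, Neurog2 turned to 0.0032 with upper-quartile factors, and Neurod4 to 0.036 with limma-voom with quality weights (log2 fold changes). Without both WT replicate 2 and cKO replicate 3, Neurog2 turned to 0.027, Neurod4 to 0.074 and Neurod6 to 0.0069. Leaving out each library in turn gave log2 fold changes of -0.24 to 0.0091 for Neurog1, -0.073 to 0.055 for Neurog2, -0.20 to 0.10 for Insm1 and -0.044 to 0.22 for Neurod1. For Neurod2 they ran from -0.25 to 0.097, for Neurod4 from -0.10 to 0.049 and for Neurod6 from -0.18 to 0.055. For Eomes they ran from -0.23 to -0.034, for Gadd45g from -0.26 to -0.0030 and for Btg2 from -0.12 to -0.037. The 95% intervals of all 10 genes included 0 in the main test.

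Whether libraries with the same replicate number are paired is not stated, and the main test did not pair them. Correlations of deviations between same-numbered libraries were 0.45, 0.32 and -0.0056 for replicates 1, 2 and 3. When the replicate block entered the edgeR model, Gadd45g alone of the 10 genes had an unadjusted p-value under 0.05 (0.028, and 0.582 after adjustment). In that blocked fit 1 gene was higher and 1 lower after adjustment, unadjusted calls came to 476 higher and 614 lower, and Ybx1 passed at -2.95 on the log2 scale. The log2 ratios of Neurod6 and of Neurog2 to Eomes kept their direction in all 8 alternatives each, although single libraries moved their size by over 1.5 times.

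Over all genes, adjusted calls were 0 higher and 0 lower by the main test, 2 and 2 by DESeq2, 2 and 1 by limma-voom with quality weights, 1 and 1 without both WT replicate 2 and cKO replicate 3, and 0 to 1 in each direction with 1 library left out. Unadjusted calls were 234 higher and 242 lower by the main test, 648 and 656 with quality weights, 390 higher without a filter and 148 higher by DESeq2. They were 121 and 118 without WT replicate 3, 571 and 482 without cKO replicate 1, 138 higher without cKO replicate 3, and 105 and 141 without both. Ybx1 did not pass in the main test (log2 fold change -3.00, adjusted p-value 0.128 in edgeR) or in 11 of 16 alternatives. It passed with log2 fold changes of -3.00 by DESeq2, -3.10 with quality weights and -3.49 without both libraries. Its log2 fold change ranged from -3.28 (passing, without WT replicate 2) to -2.75 with 1 library left out. With 3 libraries per genotype, real differences could go uncalled. The intervals given for each gene are not adjusted for the number of genes tested, so they do not mark the smallest difference that could be called. Even the Ybx1 log2 fold change of -3.00 was not called in the main test.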
